A study of Mus musculus with 2 samples.

Results

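This account covers 9 genes of intracellular calcium handling, chosen by symbol from the 40276 features counted in spatial total-RNA libraries of mouse brain and heart. They are Ryr2, Itpr1, Atp2a2, Pln, Sln, Casq2, Trdn, Jph2 and Slc8a1, and all 9 were found in the feature list. The study applied spRandom-seq, in which random primers copy RNA in place on a tissue section and barcoded spots record where it came from, to formalin-fixed, paraffin-embedded (FFPE) tissue of normal Mus musculus. There was 1 heart section and 1 brain section, each cut at 5 µm, and the same reverse-transcription primer, labelled as lacking cell barcode 2, was used for both. Strain, age and sex are not given in the labels used here. Since n = 1 per tissue, nothing below could be checked against replicates and no test was run. Intervals are given at 95%, cover counting error alone and assume that counts stand for separate molecules.

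Muscle and nerve cells keep a store of calcium in the endoplasmic reticulum, called the sarcoplasmic reticulum in muscle. Release channels let calcium out into the cytosol, a pump returns it, small membrane proteins restrain that pump, a lumenal protein holds calcium inside the store, junction proteins hold the store against the surface membrane, and an exchanger removes calcium from the cell. In heart muscle this cycle runs with every beat. In neurons the same stores shape signals in dendrites, cell bodies and synaptic endings.

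Barcodes with at least 500 counts and 200 features were taken as spots over tissue. This left 3726 spots with 44613867 counts in heart and 4080 spots with 37143546 counts in brain. The median spot held 9049.5 counts in heart and 5981 in brain. The 2 libraries list the same 4992 barcodes, and 3342 of them passed in both sections. Ribosomal RNA took 54.6% of counts in heart and 34.9% in brain. Marker genes went with the labels. The 10 sarcomere genes summed to 22616 CPM (counts scaled to 1e+06 counts of the kept spots) in heart and 47.5 CPM in brain, and 8 pan-neuronal genes summed to 142 CPM in heart and 3393 CPM in brain. A spot can hold several cells. Fewer cells of a type and less RNA per cell cannot be told apart in these values.

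The heart section carried more of most of these genes. A gene was counted as higher in a section where it was at least 4-fold higher and reached 20 CPM there. By that rule 6 of the 9 genes (Ryr2, Atp2a2, Pln, Casq2, Trdn and Jph2) were higher in heart, where 5.41% of 6345 features were, taking those that reached 20 CPM in a section. None of the 9 was higher in brain by the rule, where 17.2% of features were. The median log2 ratio of heart over brain was 3.12 over the 9 genes and -0.43 over 11925 features whose mean of the sections reached 5 CPM. Scaled to counts outside ribosomal, mitochondrial and small structured RNA, the medians were 3.68 and 0.13. Itpr1 alone had its higher level in brain.

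**Figure D1:**
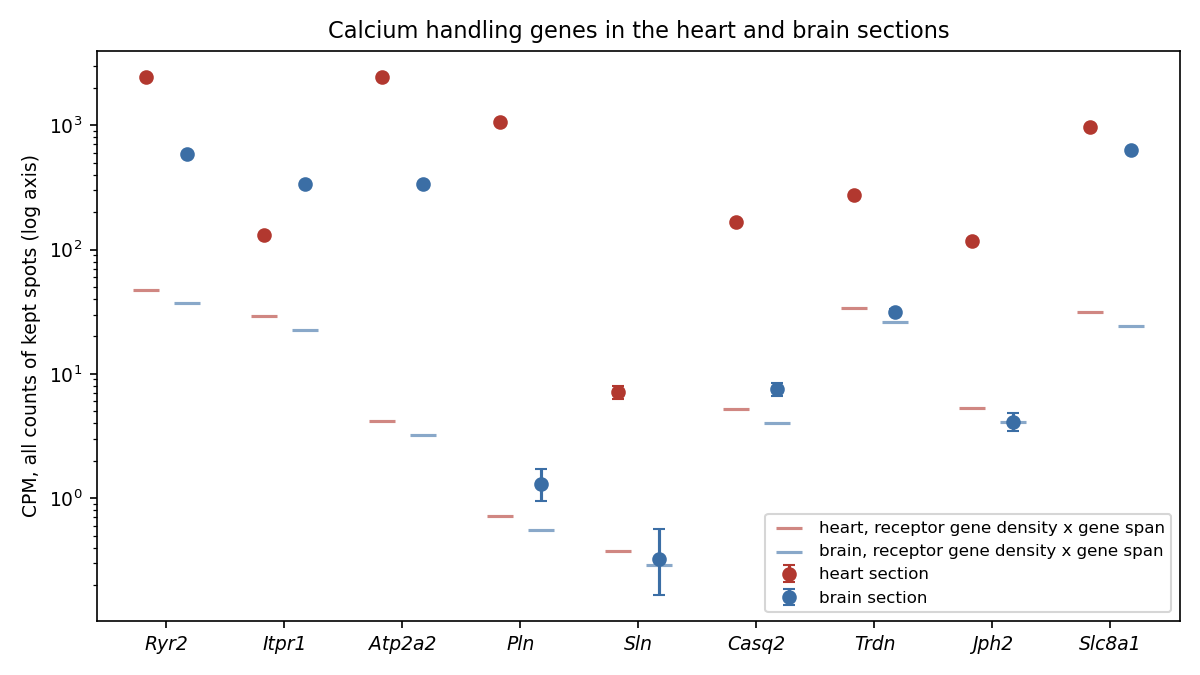
Level of each calcium handling gene in the heart section (red, left of each pair) and the brain section (blue), in CPM on a log axis. Points carry 95% Poisson intervals, most of them smaller than the point, and short bars mark the level that each gene's length would give at the density of counts over olfactory and vomeronasal receptor genes. In brain, Jph2 at 4.12 CPM and Sln at 0.323 CPM lie at that mark.

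Counts over genes that neither tissue is known to use in quantity gave a floor for these levels. Olfactory and vomeronasal receptor genes, 1551 of them, drew 3.84 counts per kb of gene span in heart and 2.47 in brain. Set against that density and the length of each gene, counts in brain were 1.003 times the floor for Jph2, 1.11 times for Sln, 1.19 times for Trdn, 1.88 times for Casq2 and 2.34 times for Pln. Of 319 receptor genes spanning at least 10 kb, 61.4% had fewer counts per kb in brain than Jph2, 78.4% fewer than Trdn and 94.7% fewer than Casq2. The other 4 genes stood well above the floor in brain, from 15.1 times for Itpr1 to 104 times for Atp2a2. In heart all 9 were above it, from 4.49 times for Itpr1 and 8.05 times for Trdn to 1475 times for Pln.

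Of the release channels, Ryr2, the ryanodine receptor of heart muscle, had 2433 CPM in heart (108561 counts) and 582 CPM in brain (21635 counts). The ratio was 4.18 (4.12 to 4.24), close to the 4-fold limit of the rule. Itpr1, an inositol trisphosphate receptor abundant in neurons, ran the other way, with 130 CPM in heart and 339 CPM in brain. It was 2.60-fold (2.52 to 2.68) higher in brain, short of 4-fold.

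The pump and the small proteins that restrain it differed far more from each other. Atp2a2, the SERCA pump that refills the store, had 2443 CPM in heart and 337 CPM in brain, a ratio of 7.25 (7.12 to 7.39). Pln, phospholamban, which slows that pump until it is phosphorylated, had 1055 CPM in heart (47059 counts) and 1.29 CPM in brain (48 counts). Its ratio was 816 (616 to 1107), the highest of the 9 as counted. In spots whose barcodes passed in only 1 section the log2 ratio of Pln was 8.53 in place of 9.66, that of Sln 6.60 in place of 4.40 and that of Jph2 4.02 in place of 4.83. In brain, barcodes passing in both sections held 43 of 48 Pln counts and 10 of 12 Sln counts, so few were left. That is 89.6% of Pln counts and 83.3% of Sln counts, beside 88.8% of all brain counts. In heart they held 17.7% of Sln counts and 90.0% of all counts, so the spots left differed in composition. The shifts cannot be told apart from these limits. With the receptor gene floor subtracted Jph2, left with almost no count in brain, had a higher log2 ratio (12.04) than Pln (10.45). Sln, sarcolipin, a related inhibitor known from atrial muscle, had 7.08 CPM in heart (316 counts) and 0.323 CPM in brain (12 counts), a ratio of 21.9 (12.4 to 42.9). It stayed under 20 CPM in both sections, so the rule could not call it. The Pln gene overlaps Cep85l on the opposite strand, which had 2638 counts in heart and 1850 in brain. Whether counting used strand is not given in the sources used here, so the brain counts of Pln are uncertain.

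The lumenal and junctional genes were all higher in heart by the rule. Casq2, calsequestrin, the calcium-binding protein of the store, had 167 CPM in heart and 7.51 CPM in brain, a ratio of 22.3 (19.8 to 25.2). Trdn, triadin, which ties calsequestrin to the ryanodine receptor, had 274 CPM in heart and 31.4 CPM in brain, a ratio of 8.72 (8.21 to 9.27). Trdn overlaps an antisense gene, D830005E20Rik, with 5209 counts in heart and 105 in brain, equal to 42.6% of the Trdn counts in heart and 9.0% in brain. Without strand the reads of such a pair cannot be told apart. Jph2, junctophilin, which bridges the surface membrane and the store, had 118 CPM in heart and 4.12 CPM in brain, a ratio of 28.6 (24.3 to 33.8). Since the brain counts of Jph2, Trdn and Sln lie near the receptor gene floor, their ratios set heart against a level at or near that floor. With the floor subtracted, the log2 ratio of Trdn was 5.56 in place of 3.12.

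The exchanger differed little between the sections. Slc8a1, which moves calcium out of the cell against sodium, had 971 CPM in heart and 633 CPM in brain, a ratio of 1.53 (1.51 to 1.56), the nearest to 1 of the 9 on this scale. Scaled to counts outside ribosomal, mitochondrial and small structured RNA, its log2 ratio was 1.17 and that of Itpr1, at -0.82, was nearer to 0. Slc8a1 was the most abundant of the 9 in brain by CPM. Its gene is long, and per kb of exon Atp2a2 led in both sections, with 402 CPM per kb in heart and 55.4 in brain. On that scale Pln followed in heart with 382, then Ryr2 with 84.5, Casq2 with 61.2, Slc8a1 with 51.7, Trdn with 29.3, Jph2 with 27.7, Itpr1 with 7.12 and Sln with 5.37. In brain the order after Atp2a2 was Slc8a1 with 33.7, Ryr2 with 20.2, Itpr1 with 18.5, Trdn with 3.36, Casq2 with 2.75, Jph2 with 0.968, Pln with 0.468 and Sln with 0.245 CPM per kb of exon.

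The stretch around the start of transcription is shown for 3 of the genes, chosen to set Pln, with its high ratio between the sections, beside Slc8a1, abundant in both, and to show the only window with a MEF2 motif. RefSeq promoter windows (GRCm38.p6, 250 bases before to 50 after the start, 5′ to 3′ on the gene's strand) were found for 5 of the 9 genes, not for Itpr1, Atp2a2, Sln or Trdn. Capitals mark matches, searched on both strands, to GATA, to the E-box CANNTG, to the MCAT element CATTCC, to the TATA box letters TATAAA and to the MEF2 motif. On the other strand a GATA match reads TATC. No match overlaps another in these windows. The Pln window lies on the plus strand at chr10:53337436-53337735, the Slc8a1 window on the minus strand at chr17:81738338-81738637 and the Casq2 window on the plus strand at chr3:102086165-102086464.
Pln: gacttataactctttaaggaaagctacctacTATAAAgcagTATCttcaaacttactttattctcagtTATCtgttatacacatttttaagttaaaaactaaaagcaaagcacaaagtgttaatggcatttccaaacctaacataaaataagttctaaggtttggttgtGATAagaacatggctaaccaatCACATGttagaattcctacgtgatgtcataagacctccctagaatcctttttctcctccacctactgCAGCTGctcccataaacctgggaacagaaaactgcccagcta
Slc8a1: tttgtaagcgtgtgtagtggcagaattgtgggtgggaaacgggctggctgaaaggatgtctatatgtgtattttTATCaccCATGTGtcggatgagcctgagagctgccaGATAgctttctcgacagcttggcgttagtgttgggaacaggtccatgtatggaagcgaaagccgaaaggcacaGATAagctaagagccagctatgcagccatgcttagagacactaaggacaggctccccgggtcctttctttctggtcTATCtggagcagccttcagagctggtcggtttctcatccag
Casq2: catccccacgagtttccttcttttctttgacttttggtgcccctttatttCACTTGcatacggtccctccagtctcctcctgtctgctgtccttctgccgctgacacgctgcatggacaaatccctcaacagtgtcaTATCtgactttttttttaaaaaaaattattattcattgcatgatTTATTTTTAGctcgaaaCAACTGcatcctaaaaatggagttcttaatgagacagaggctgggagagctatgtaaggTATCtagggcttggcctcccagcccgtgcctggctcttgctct
The Pln window holds 1 CpG and 36% G and C, with 3 GATA, 2 E-box and 1 TATA box match. The Slc8a1 window holds 9 CpG and 50.7% G and C, with 4 GATA and 1 E-box match. The Casq2 window holds 6 CpG, 2 GATA, 2 E-box and 1 MEF2 match. The Ryr2 window, not printed, holds 18 CpG and 65.3% G and C, with 2 E-box matches. Among 32851 mouse promoter windows the median was 7 CpG and 52.7% G and C. GATA occurred in 57.9% of those windows, an E-box in 72.3%, the MCAT element in 14.7%, the TATA box letters in 13.6% and the MEF2 motif in 3.19%. These matches describe the letters of the windows only.

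Paralogues divided the families differently in the 2 tissues. Shares depend on the length used, and whether intronic reads were counted is not given in the sources used here, so shares per kb of exon come first and those per kb of gene span follow where they differ in order. Per kb of exon, Ryr2 made up 94.5% of the ryanodine receptor counts in heart and 44.2% in brain, where Ryr3 held 54.4%. Per kb of span the brain order turned, with 53.3% for Ryr2 and 40.9% for Ryr3. Itpr1 made up 43.0% of the inositol trisphosphate receptor counts in heart, beside Itpr2 with 49.8%, and 77.6% in brain. Per kb of span Itpr1 held 44.9% and Itpr2 36.0% in heart. Slc8a1 made up 94.0% of its family in heart and 55.9% in brain, with Slc8a2 and Slc8a3 at 1.25% and 4.74% in heart and at 20.3% and 23.9% in brain. Per kb of span Slc8a2 led in brain with 47.2%, before Slc8a1 with 39.8%. Jph2 made up 75.8% of the junctophilins in heart, and in brain Jph1, Jph3 and Jph4 held 43.5%, 29.6% and 24.0% of them. Per kb of span Jph2 held 79.1% in heart, and in brain the order was reversed, with 7.91% for Jph1, 9.88% for Jph3 and 81.2% for Jph4. Atp2a2 was nearly the whole of the SERCA pumps in both, with 99.6% in heart and 98.2% in brain. Casq2 made up 97.4% of the calsequestrins in heart and 77.7% in brain, where the share rests on 279 Casq2 and 57 Casq1 counts. Per kb of span Casq2 held 44.8% in brain, less than Casq1, and Casq2 there was only 1.88 times the receptor gene floor, so the order of the calsequestrins in brain depends on the length used.

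**Figure D2:**
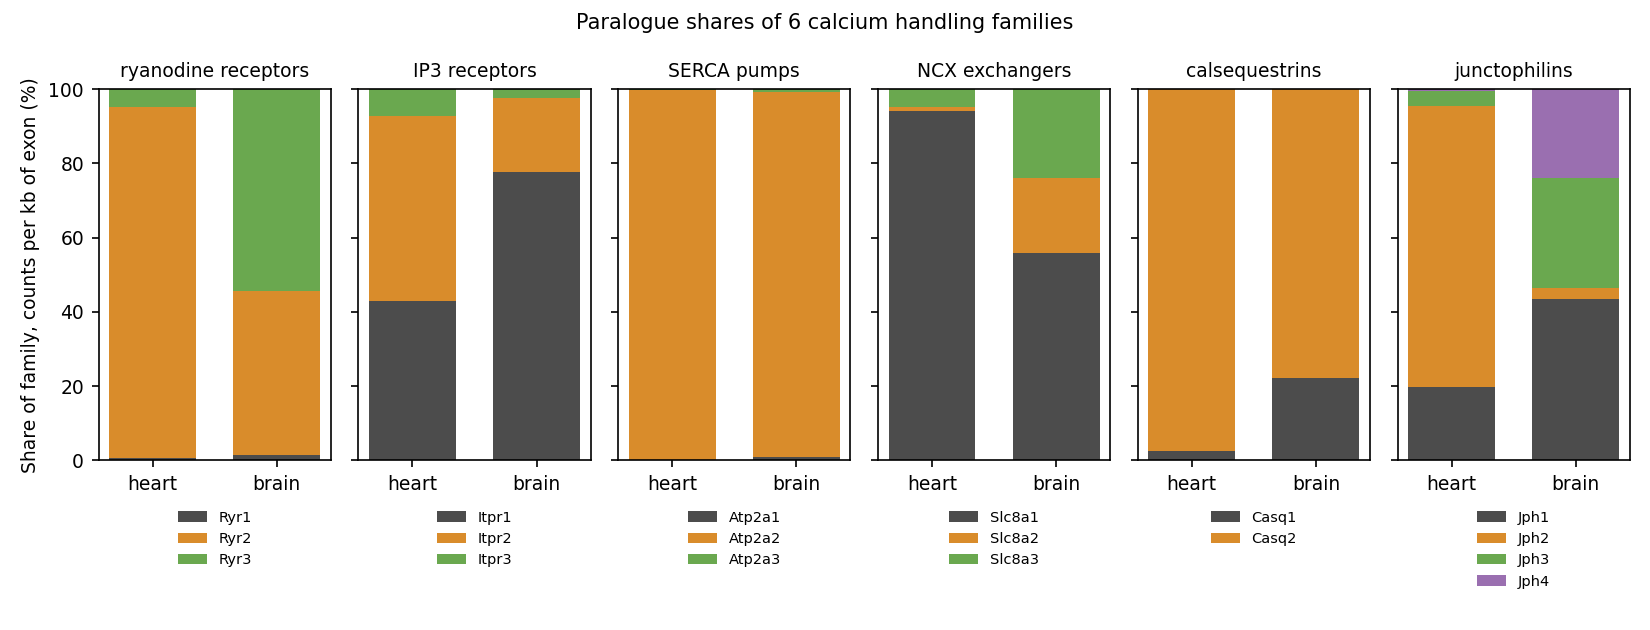
Share of each paralogue in its family, in percent of counts per kb of exon, with heart on the left and brain on the right in each panel. Ryr2, Slc8a1 and Jph2 fill 94.5%, 94.0% and 75.8% of their families in heart, while Ryr3, Slc8a2, Slc8a3, Jph3 and Jph4 take larger shares in brain. The orders of Ryr2 and Ryr3, of Slc8a1 and Slc8a2, of Casq1 and Casq2 and of Jph1, Jph3 and Jph4 in brain, and of Itpr1 and Itpr2 in heart, turn per kb of gene span.

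Beyond the 9, a list of 71 further calcium handling genes was described, of which 69 were in the feature list. By the same rule 3 of the 69 were higher in heart, 16 were higher in brain and 50 passed in neither direction. Of the 69, 42 reached 20 CPM in a section, and among all features that did, 5.41% were higher in heart and 17.2% in brain. The 3 higher in heart are near that share. The 16 higher in brain were 12 under the scaling outside ribosomal RNA. For the list the median log2 ratio of heart over brain was -0.57. Those higher in heart were Hrc, a calcium-binding protein of the sarcoplasmic reticulum, with 142 CPM in heart and 0.377 CPM in brain, Srl, sarcalumenin, with 166 CPM in heart and 13.5 CPM in brain, and S100a1, a small calcium-binding protein, with 50.3 CPM in heart and 4.44 CPM in brain. The 16 higher in brain included Calm2 and Calm3, at 27.1 and 23.1 CPM in heart and 229 and 201 CPM in brain. They also included the plasma membrane calcium pumps Atp2b1, Atp2b2 and Atp2b3, at 70.0, 29.1 and 7.13 CPM in heart and 654, 411 and 68.5 CPM in brain. The exchanger Slc24a2, which also carries potassium, had 30.4 CPM in heart and 734 CPM in brain. Slc24a3, Slc8a2, Slc8a3, Ryr3, Jph3, Jph4, Bin1, Micu3 and Calb1 were also among the 16. Ryr3 had 83.2 CPM in heart and 472 CPM in brain, and Jph4 had 1.35 CPM in heart and 55.5 CPM in brain. Among the 50 that passed in neither direction were the other lumenal proteins, such as Canx with 110 CPM in heart and 187 CPM in brain and Hspa5 with 115 CPM in heart and 90.6 CPM in brain. The store-operated entry genes were among them too, such as Stim1 with 39.9 CPM in heart and 59.0 CPM in brain and Stim2 with 39.3 CPM in heart and 97.3 CPM in brain. Of these 5 genes, 2 reached 20 CPM in a section. Orai2, with 4.71 CPM in heart and 19.9 CPM in brain, was 4.23-fold higher in brain but under 20 CPM, so the rule could not call it. Mcu, the mitochondrial uniporter, had 51.6 CPM in heart and 91.1 CPM in brain.

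The share of spots with a count was compared after thinning every spot to 2800 counts, which left 2939 heart spots and 3060 brain spots and set aside 787 shallower heart spots and 1020 brain spots. Atp2a2 was counted in 97.6% of heart spots and 56.7% of brain spots. Ryr2 was counted in 96.1% of heart spots and 58.4% of brain spots, and Pln in 86.4% of heart spots and 0.392% of brain spots. Slc8a1 was counted in 85.7% of heart spots and 74.5% of brain spots. Itpr1 was counted in 29.1% of heart spots and 54.6% of brain spots and was the only one of the 9 with the higher share in brain. Sln was counted in 1.57% of heart spots and 0.0327% of brain spots. With spots thinned to 1500 counts outside ribosomal RNA instead, Itpr1 was counted in 32.3% of heart spots and 49.1% of brain spots. Without thinning Itpr1 was counted in 57.1% of heart spots and 68.8% of brain spots, and Ryr2 in 96.4% of heart spots and 67.9% of brain spots. Trdn was counted in 49.3% of thinned heart spots and in 7.94% of thinned brain spots. Its brain counts were 1.19 times the receptor gene floor. The share of spots that this floor alone would give was not computed.

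**Figure D3:**
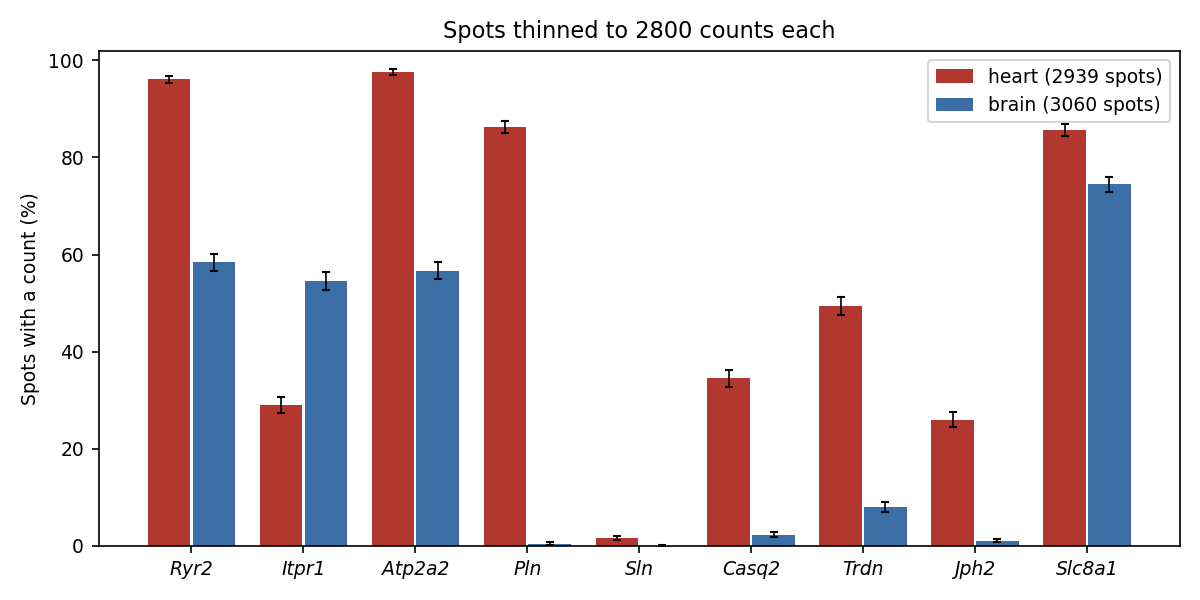
Share of spots with at least 1 count of each gene after thinning to 2800 counts, heart (red, left) and brain (blue), with exact 95% binomial intervals. Ryr2, Atp2a2, Pln and Slc8a1 were counted in 85.7% to 97.6% of heart spots, and Pln in 0.392% of brain spots.

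Within the heart section 6 of the 9 genes (Ryr2, Atp2a2, Casq2, Trdn, Jph2 and Slc8a1) were lowest in a region poor in sarcomere transcripts, and the inhibitors Pln and Sln took opposite directions in another region. Spots were grouped on 2000 variable genes that left out the 9 genes, the calcium handling list and the marker lists, which gave 6 regions. None of the 8 genes of at least 20 CPM was 2-fold above the rest of the section in any region, where 22.5% of the 4333 features at that level were. At a clustering resolution of 1.0, Itpr1 reached 2.32-fold in a region. Ryr2 ranged between 861 CPM in region 5 and 2833 CPM in region 4, and Atp2a2 between 1099 CPM in region 5 and 2779 CPM in region 1. Ribosomal RNA took between 47.6% and 63.1% of counts in these regions. Scaled to counts outside ribosomal, mitochondrial and small structured RNA, Ryr2 was highest in region 1 with 6481 CPM and Atp2a2 in region 2 with 7302 CPM, and region 5 was again the lowest for both. Region 5, 344 spots led by the globin genes Hba-a1, Hbb-bs and Hbb-bt, had 7804 CPM of the sarcomere genes against 23524 CPM in the rest of the section. Per 1000 sarcomere counts Ryr2 had 110 counts in region 5, within the 92.5 to 118 of regions 1 to 4.

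Region 6 stood apart in its inhibitors. Its 289 spots were led by Myl7, Myl4, Prg4 and Dkk3, and its atrial marker list summed to 1067 CPM, against 69.6 CPM in the rest of the section. Sln had 53.6 CPM in region 6 and 1.06 CPM in the rest, a fold of 50.4 (36.3 to 71.5). Region 6 held 274 of the 316 Sln counts, or 86.7%, and 11.5% of all counts. Pln had 277 CPM in region 6 and 1156 CPM in the rest, 4.17-fold (3.954 to 4.398) higher in the rest. Pln was nonetheless counted in 256 of the 289 spots of region 6, and 118 of the 124 spots there with a Sln count also had a Pln count.

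The pump itself differed less, with 1732 CPM of Atp2a2 in region 6 and 2535 CPM in the rest. There were 16 Pln counts (15.1 to 16.9) per 100 Atp2a2 counts in region 6 and 45.6 (45.1 to 46.1) in the other regions together, which ranged between 38.8 and 47.9. There were 19.3 Sln counts (16.9 to 22.0) per 100 Pln counts in region 6 and 0.0920 (0.0663 to 0.124) in the others. Relative to sarcomere counts, Pln was low in region 6, with 19.4 per 1000 against 47.7 to 54.9 elsewhere, and Ryr2 was high, with 152 against 92.5 to 118. Ryr2 per 100 Atp2a2 counts was 125 in region 6 and 97.3 in the others together. The sarcomere list itself was lower in region 6, at 14266 CPM against 23697 CPM in the rest, as was Atp2a2. These ratios therefore do not show a higher level of Ryr2 in region 6. By CPM Ryr2 was highest in region 4, at 2833 CPM. Itpr1 had 216 CPM in region 6 and 119 CPM in the rest, 1.81-fold (1.70 to 1.93) higher. Scaled to counts outside ribosomal, mitochondrial and small structured RNA, the fold was 1.51. Receptor gene density also differed between heart regions, and would give Itpr1 15.5 CPM in region 2 and 46.0 CPM in region 3. The part of this density in the Itpr1 value of region 6 was not tested. The fibroblast list also stood higher in region 6, at 828 CPM against 176 CPM in the rest, and the meninges list at 243 against 75.3 CPM. Both lists include Dcn, so they are not separate. Their part in the Itpr1 value was not tested.

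**Figure D4:**
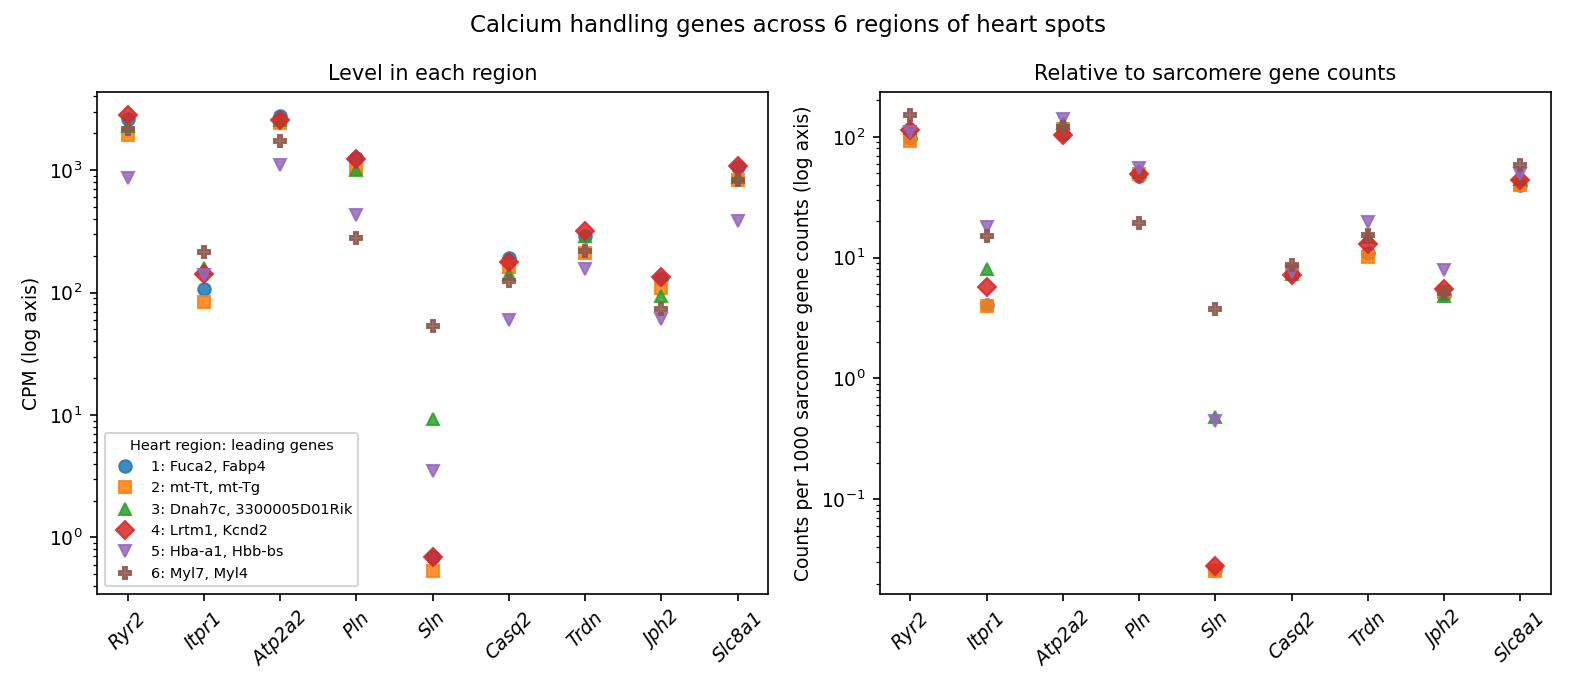
Each calcium handling gene in 6 regions of heart spots, in CPM (left) and in counts per 1000 counts of 10 sarcomere genes (right), both on log axes, with a marker for each region and its 2 leading genes in the legend. Region 6 (crosses) is highest for Sln at 53.6 CPM and lowest for Pln at 277 CPM, and region 5 (purple triangles) is low in CPM for most genes but not per sarcomere count.

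Across 13 finer groups of heart spots with at least 30 spots each, Pearson's r of log2(CPM + 1) was 0.96 between Ryr2 and Slc8a1, 0.96 between Ryr2 and Casq2 and 0.91 between Ryr2 and Trdn. Between Atp2a2 and Pln it was 0.86. Itpr1 had negative r with the other 7 genes compared, between -0.75 with Pln and -0.10 with Slc8a1. The groups share 1 library, so these values only describe it. Among 4325 candidate features outside the 9, the most similar pattern to Ryr2 was that of Rbm20 (r = 0.99), a muscle splicing regulator, to Pln that of Ech1 (0.99), an enzyme of fatty acid oxidation, and to Atp2a2 that of Tnnt2 (0.99), cardiac troponin T. For Itpr1 it was Ube2e2 (0.98), for Casq2 1110002E22Rik (0.98), for Jph2 Perm1 (0.97), for Slc8a1 Prdx1 (0.98) and for Trdn Ppargc1a (0.95). Over single thinned spots the summed sarcomere counts had a Spearman rho of 0.48 with Ryr2, 0.46 with Atp2a2, 0.44 with Pln and 0.33 with Slc8a1. It was 0.17 with Casq2, 0.16 with Trdn, 0.14 with Jph2, -0.07 with Sln and -0.08 with Itpr1, and counts of these 5 genes are sparse in single spots. Over the same spots rho was 0.32 between Ryr2 and Slc8a1 and 0.31 between Atp2a2 and Pln. Between Ryr2 and Casq2 it was 0.15, and between Ryr2 and Trdn 0.16.

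In the brain section the same genes separated from one another. Of the 5 genes of at least 20 CPM there, all 5 were 2-fold or more above the rest of the section in some region, where 35.1% of the 5567 features at that level were. The highest region was a different one for each of Ryr2, Atp2a2, Slc8a1 and Itpr1 among the 15 regions. The fifth, Trdn, was highest in region 6, led by Ptgds and Fmod, with 68.9 CPM. The receptor gene density of that same region would give 58.0 CPM for a gene of Trdn's length.

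Ryr2 was highest in region 11, 60 spots led by Dsp, Maml2, Slc29a4 and Prox1. It had 1561 CPM there and 497 CPM in the rest of the section, a fold of 3.14 (3.04 to 3.25). It was lowest in region 3, 658 spots led by Shox2, Prkcd, Synpo2 and Plekhg1, with 60.0 CPM against 669 CPM in the rest. That is 11.2-fold (9.99 to 12.5) higher in the rest, and the receptor gene density of region 3 would alone give 28.6 CPM. The pan-neuronal list was at 3370 CPM in region 3 and 3397 CPM in the rest. Spots of region 11 were the deepest of the section, and ribosomal RNA took 23.9% of its counts and 37.5% of those of region 3. Scaled to counts outside ribosomal, mitochondrial and small structured RNA, the fold of Ryr2 in region 11 was 2.61.

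Atp2a2 was highest in that same region 3, with 794 CPM against 261 CPM in the rest, a fold of 3.04 (2.93 to 3.16). Region 3 therefore had 7.55 Ryr2 counts (6.72 to 8.47) per 100 Atp2a2 counts, and region 11 had 872 (797 to 955). Ryr3, the other ryanodine receptor of brain, had 728 CPM in region 3. Per kb of exon, Ryr2 made up 5.15% of Ryr2 and Ryr3 in region 3, 19.97% in region 7, 27.3% in region 10, 66.9% in region 1 and 69.5% in region 11. As over the whole section, such shares depend on the length used, and regional shares per kb of gene span were not computed. Across the 21 finer groups of brain spots r between Ryr2 and Atp2a2 was -0.66.

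Slc8a1 was highest in region 10, 63 spots led by 4921539H07Rik, Gpr161, Ctxnd1 and Wfs1. It had 1758 CPM there and 553 CPM in the rest, a fold of 3.18 (3.08 to 3.29). Ryr3 was also highest there, with 1391 CPM. Slc8a1 was low in region 11, with 187 CPM, where Ryr2 was highest. The hippocampus marker list was higher in regions 10 and 11 than in the rest. It was at 597 CPM in region 10 against 208 CPM and at 590 CPM in region 11 against 203 CPM. That list was highest in region 9, at 648 CPM against 203 CPM. Region 9 had 217 Slc8a1 counts and 212 Ryr2 counts per 100 Atp2a2 counts. Much of the region 11 sum came from Prox1, a leading gene there and among the 5 genes of the list. Prox1 had 361 CPM in region 11 and 35.0 CPM in the rest. Slc8a1 was also low in region 7, with 195 CPM, and in region 15, 20 spots led by Ttr and Sostdc1, with 105 CPM. Region 15 had few neuronal transcripts, with 594 CPM of the pan-neuronal list against 3432 CPM in the rest.

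Itpr1 was highest in region 7, 159 spots with Penk, Adora2a and Drd2 among the leading genes. It had 745 CPM there and 326 CPM in the rest, a fold of 2.29 (2.13 to 2.45). It was next in region 15, with 551 CPM, and region 10, with 506 CPM. It was lowest in region 14, 30 spots led by Gpr151 and Chrna3, with 95.2 CPM. Region 9, 66 spots led by Lpl and Neurod6, had 139 CPM of Itpr1 beside 828 CPM of Ryr2.

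**Figure D5:**
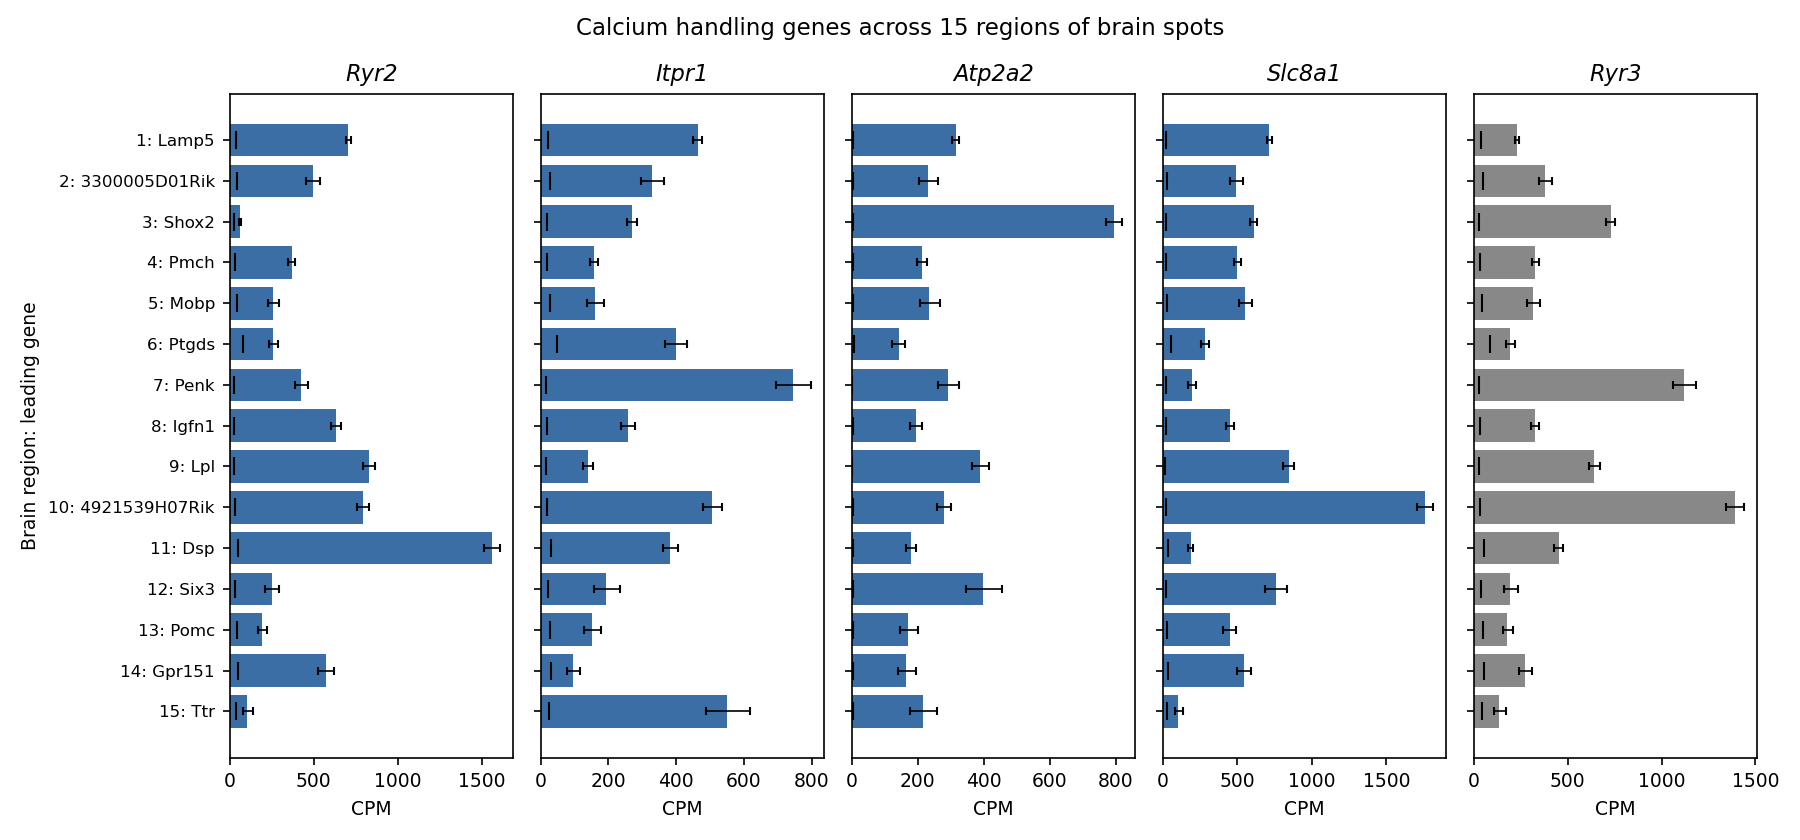
Ryr2, Itpr1, Atp2a2, Slc8a1 and, in grey, the paralogue Ryr3 in 15 regions of brain spots, in CPM with 95% Poisson intervals. Thin vertical marks show the level expected from receptor gene density in that region. Ryr2 is highest in region 11 at 1561 CPM and Atp2a2 in region 3 at 794 CPM, where Ryr2 has 60.0 CPM.

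Pln was rare in brain, with 48 counts over the section. Regions 1 and 6 held 11 and 7 of them, at 1.11 and 4.87 CPM. Its highest level rested on another 7 counts, in region 12, 54 spots led by Six3, Lancl3, Pvalb and Lgi2. They came from 6 of those spots. Pln had 12.9 CPM in region 12 (5.18 to 26.6) and 1.12 CPM in the rest, a fold of 11.5 (4.36 to 25.9), while receptor gene density would give 0.512 CPM there. The sarcomere list also stood higher in region 12, at 273 CPM against 44.2 CPM in the rest. Of its 10 genes 8 were higher in region 12. Ttn had 181 CPM in region 12 and 22.9 CPM in the rest, and Myh6 had 40.5 CPM in region 12 and 1.75 CPM in the rest. Actn2 had 27.6 CPM in region 12 and 13.5 CPM in the rest. Tcap and Tnni3, with 4 counts each, had 7.37 CPM in region 12 and 0.191 and 0.410 CPM in the rest, and the other 3 rested on 1 or 2 counts each. Actc1 and Mybpc3 were at 0 counts in region 12. In the heart section Ttn had 14864 CPM, Myh6 4126 CPM, Actc1 854 CPM and Mybpc3 420 CPM, beside 1055 CPM of Pln. The inhibitory neuron list was at 1481 CPM in region 12 and 166 CPM in the rest. The part of these markers in the Pln value was not tested.

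The gene with the most similar pattern over the 21 finer brain groups, among 5555 candidates, was Nptx1 for Ryr2 (r = 0.93), Rap1gds1 for Atp2a2 (0.97), Gng3 for Slc8a1 (0.82) and Pde10a for Itpr1 (0.78). Ryr2 had an r of 0.18 with Itpr1 and -0.07 with Slc8a1 over these groups, and Atp2a2 had 0.36 with Slc8a1.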

How the data were processed

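Libraries of 1 heart section and 1 brain section were read as deposited: whole-number counts per feature and barcode, made by the authors with STARsolo against mm39, per the submitters' processing notes. Tool versions, the merging of molecular tags, the counting of intronic reads and the use of strand are not given in the sources used here. Spot positions were not used here. Some genes that the naming rule covers are not reported here.

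The 9 genes, the lists and the comparisons were chosen with earlier results of these data known. Barcodes with at least 500 counts and 200 features were kept, which gave 3726 heart and 4080 brain spots. Counts were summed per section and scaled to CPM. Levels have exact Poisson intervals, shares exact binomial intervals and ratios exact conditional binomial intervals, at 95%. No test was run. For the median log2 ratio 0.5 counts were added to each sum. Spots were grouped within a section on 2000 variable genes, 20 principal components, 15 neighbours and Leiden clustering at 0.6, and at 2 for the finer groups (leidenalg 0.10.2, igraph 0.11.9, scikit-learn 1.9.0, scipy 1.17.1, numpy 2.4.6, pandas 2.3.3). Spots were thinned at random with seed 1.

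GENCODE mouse release M21 on GRCm38 gave, by gene ID, only lengths, overlaps and gene types, since the files use another build. The genes named are the 9, their paralogues, other calcium handling genes past the size rule or with the highest CPM of their role, overlapping genes, and the features with the most similar pattern. Lead genes of a region are those with the highest fold at 50 CPM or more. The size rule, the ratio with its interval and the thinning of spots were tested on simulated data. Clustering and the other steps were not. Alternatives tried were other scalings, spot thresholds, floors, folds, lengths, backgrounds and clustering resolutions.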

Additional observations from a re-analysis of the deposited data

Results flagged for a closer look

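Barcodes that did not reach the threshold for a spot over tissue held counts of the 9 genes too. In the heart section 1266 such barcodes held 1141 counts of the 9 genes, or 7369 CPM of their own total, and the kept spots had 7599 CPM. In the brain section 912 such barcodes held 186 counts, or 1185 CPM, and the kept spots had 1936 CPM. These barcodes were in none of the comparisons above.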

How the results depend on the processing

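With 1 section per tissue, the animal, the section and the library cannot be told apart from the tissue, and regions rest on expression without positions. All 9 genes kept their direction under each of the 7 alternatives for the ratio, and Itpr1 stayed higher in brain, with log2 ratios of heart over brain between -1.64 and -0.82. Scaling to counts outside ribosomal, mitochondrial and small structured RNA moved the median log2 ratio over all features to 0.13, the reverse of -0.43, and that of the 9 genes to 3.68. That median was 2.88 with each spot weighing the same and 5.52 after subtracting the receptor gene density. The gene at the median was Trdn, at 3.12, as counted and Casq2, at 5.52, after the subtraction. The subtraction also leaves Jph2, above the median in both cases, almost no count in brain. Calcium handling genes outside the 9 that were higher in heart numbered 5 in place of 3 under the scaling outside ribosomal RNA, 5 at 2-fold and 5 with no floor on CPM. Those higher in brain numbered 12 in place of 16 under that scaling, 13 in spots whose barcodes passed in only 1 section, 18 with background subtracted, 19 with no floor and 23 at 2-fold. Of the 9, 7 in place of 6 were higher in heart in spots whose barcodes passed in only 1 section and with no floor. At 2-fold 1 of the 9 (Itpr1) was higher in brain. At a clustering resolution of 1.0, 1 of the 8 genes (Itpr1, 2.32-fold) passed 2-fold in a heart region. No paired analysis was possible because each tissue has 1 section and the labels give no shared replicate numbers.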
